A study of Bos taurus with 15 samples.

Results

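Aminoacyl-tRNA synthetases are the enzymes that join each amino acid to its transfer RNA (tRNA), the step that fixes which amino acid a codon is read as. Animal cells hold a cytoplasmic set, whose gene names here end in 1 (or in A or B for the phenylalanyl enzyme), and a mitochondrial set, whose names end in 2, and both are encoded in the nucleus. GARS1 and KARS1 each give rise to a cytoplasmic and a mitochondrial enzyme, and EPRS1 is a single protein that loads glutamate and proline. In mammals several cytoplasmic synthetases sit together in the multi-synthetase complex, which is held together by scaffold proteins that include AIMP1 and AIMP2. An oocyte translates from stored transcripts, and the embryo's own genome becomes broadly active only late in cleavage.

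The 37 genes considered were listed by name, as synthetases of either compartment or as the scaffolds AIMP1 and AIMP2. No measured value entered that list of names, but this group was chosen with earlier results of these data known. A probe set named 31 of them on the Affymetrix Bovine Genome array, among 9155 genes named there in all. They were 16 of 19 cytoplasmic synthetases, 13 of 16 mitochondrial ones and both scaffolds. EARS2, FARSA, FARSB, PARS2, VARS1 and YARS2, the other 6, had no probe set under these names and were not analysed here. The 31 measured genes had 42 probe sets, and 8 genes had more than 1. Where a gene had several, the one of highest mean signal over all arrays stood for it. That choice used measured signals, morulae and blastocysts included, so it can favour probe sets that are high in those stages. The 9155 named genes were taken by the same choice.

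The samples were bovine (Bos taurus) embryos of 8 successive stages, produced in vitro, on 15 arrays. Oocytes had 3 arrays, 1-cell embryos 2, 2-cell, 4-cell, 8-cell and 16-cell embryos 1 each, and morulae and blastocysts 3 each, with replicates that the labels call biological. All stages share 1 protocol, in which oocytes from small follicles were matured for 20 hours, fertilised and freed of cumulus cells by vortexing, and embryos were then cultured in synthetic oviduct fluid. The labels do not say at which point of it the oocyte samples were taken, nor how many oocytes or embryos each array pooled. No strain, age or treatment is given, and total RNA passed through 3 rounds of amplification before labelling. Each value is a signal, an intensity on a linear scale, and every change below is a difference of log2(signal + 16), a scale that understates changes of low signals. A gene is called changed where the adjusted p of limma is under 0.05, adjusted over all 24016 probe sets tested. Signals are shares of amplified RNA, so fewer transcripts per embryo and a smaller share of the RNA cannot be told apart. Levels of different probe sets are set against each other only in the choice of 1 probe set per gene, the marker sums and 1 measure of the classes. That measure is named as such, and no detection limit was used.

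The arrays were not equally alike. In oocytes, morulae and blastocysts the arrays numbered 3 stood apart from the others of their stage over all probe sets. In blastocysts 1979 and 2514 probe sets differed 4-fold or more between array 3 and arrays 1 and 2. Between blastocyst arrays 1 and 2 it was 352. Among the 31 genes, the number with a difference of 4-fold or more from morula arrays 1 and 2 was 9 and 7 for morula array 3, and 0 between arrays 1 and 2. For oocyte array 3 it was 6 and 5, and again 0 between oocyte arrays 1 and 2. For blastocyst array 3 it was 1 and 3, and 1 between blastocyst arrays 1 and 2, so among these genes that array stood apart less. Labelling controls were high on 9 arrays and low on the others, which were oocyte 1, 1-cell 1, morula 1 and 2, and blastocyst 1 and 2. The middle-to-3' ratio of the cyclophilin control probes, a sign of how complete the amplified transcripts were, was 0.178 to 0.322 on morula arrays and 0.0141 to 0.102 on oocyte arrays. That of GAPDH was 0.1 to 0.625 on morula arrays and 0.0374 to 0.237 on oocyte arrays. Defining markers were in place. The summed signal of 6 oocyte markers was 594 to 790 on morula arrays and 22266 to 38500 on oocyte arrays, and all 6 were lower in morulae. Of 8 markers of epithelium or trophectoderm 6 were higher in morulae, with sums of 19707 to 37641 on morula arrays and 313 to 374 on oocyte arrays. Of 14 cumulus or granulosa cell markers 1 was higher and 3 were lower, and their sums were 9292 to 10990 on morula arrays and 6332 to 7165 on oocyte arrays. HAS2 made up most of the morula sums, and its probe sets disagreed, with 1 at -6.20. Without HAS2 the sums of the other 13 were 670 to 1733 on morula arrays and 4761 to 5552 on oocyte arrays. Of 7 sperm markers 1, ODF2, was higher in morulae. Beyond fits without the arrays numbered 3 and with the labelling control class as a block, the part of these differences in the results below was not tested.

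Of the 31 synthetase and scaffold genes 12 rose in morulae against oocytes (38.7%), 1 fell (3.23%) and 18 did not pass the test. Among all 9155 named genes, taken at 1 probe set each, 17.8% rose and 8.67% fell, and among all probe sets 11.8% rose and 7.16% fell. The median change of the 31 genes was 1.79 on the log2 scale, against 0.14 for all named genes, and 30 of the 31 estimates were positive. Signals on the morula and oocyte arrays did not overlap for 18 genes that were higher and 1 that was lower in morulae. The share of all named genes without overlap was 26.8% higher and 16.5% lower. Without the arrays numbered 3, 22 of the 31 genes rose and 1 fell, and all 13 genes called on the full set were among them. In that fit 18.1% of all probe sets rose and 11.5% fell. With the replicate number as a block, 15 rose and 1 fell, against 14.2% and 8.76% of all probe sets, and with the labelling control class as a block the count was again 13. Of the 18 genes that did not pass, AIMP1, FARS2, HARS1, KARS1, LARS1, LARS2, SARS2 and TARS2 were called higher without morula 3 (limma adjusted p from 0.00147 for TARS2 to 0.0471 for FARS2), KARS1 also without oocyte 2 (0.0453), and IARS2 without oocyte 1 (0.0489).

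**Figure D1:**
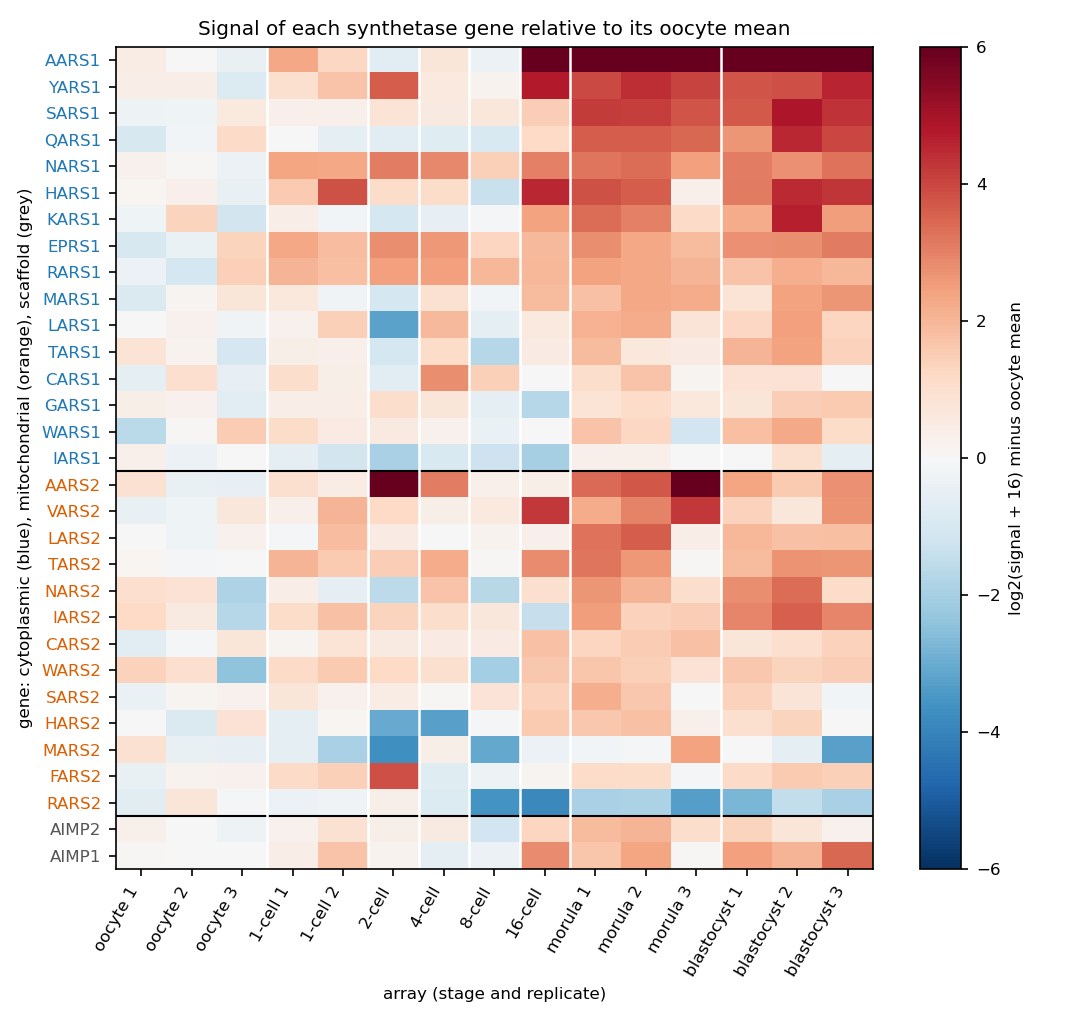
Heat map of log2(signal + 16) on each of 15 arrays (columns, by stage and replicate) minus the oocyte mean of the same gene, for 31 genes (rows), with the colour scale ending at 6 in either direction. Rows are grouped as cytoplasmic (blue names), mitochondrial (orange) and scaffold (grey) and ordered by the change in morulae. Most rows turn red at the 16-cell stage or in morulae, NARS1, RARS1 and EPRS1 are red from the 1-cell stage, and RARS2 is blue from the 8-cell array on.

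Of the cytoplasmic synthetases 8 of 16 rose and 0 fell in morulae against oocytes, with a median change of 2.30 (range 0.22 to 6.97). Among all named genes 17.8% rose and 8.67% fell. All 16 estimates were positive on the full set, but IARS1, the isoleucyl enzyme, was -0.01 after quantile normalization and WARS1, the tryptophanyl enzyme, was -0.20 without oocyte 1. AARS1, which loads alanine, had the largest change of the 31 genes. Its signal was 5805, 6742 and 6599.5 on the morula arrays, against 53.4, 34.4 and 21.6 on the oocyte arrays. No oocyte array came near any morula array, and the change was 6.97 (SE 0.40, limma adjusted p 1.3e-05). Without the arrays numbered 3 it was 6.73.

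YARS1, the tyrosyl enzyme, and SARS1, the seryl enzyme, followed among the cytoplasmic genes. YARS1 signals were 1189, 1685 and 1272 on morula arrays and 87.5, 85.7 and 28.6 on oocyte arrays. The groups lay far apart, with a change of 4.15 (SE 0.46, limma adjusted p 0.000237). SARS1 had 861, 834 and 637 in morulae and 22.1, 23.6 and 55.2 in oocytes, again with no overlap and with little spread among the morula arrays. Its change was 4.05 (SE 0.41, limma adjusted p 0.000156). NARS1, which loads asparagine, had 8103, 8813 and 4776 in morulae and 1029, 907 and 679.7 in oocytes. Every morula array exceeded every oocyte array, and the change was 3.00 (SE 0.31, limma adjusted p 0.000167). The 2 other probe sets of NARS1 gave changes of 0.08 and -0.07, and with the mean of its 3 probe sets the change was 1.00 (limma adjusted p 0.0815). AARS1, YARS1, SARS1 and NARS1 encode enzymes that work outside the multi-synthetase complex. They were the 4 of 9 such cytoplasmic genes that rose (44.4%, against 17.8% of all named genes). The median change over the 9 was 2.58.

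The others outside the complex did not pass. HARS1, the histidyl enzyme, changed most among them, by 2.58 (limma adjusted p 0.0865). Its signals were 2017, 1775 and 163 in morulae and 139.9, 164 and 91.6 in oocytes, so that morula array 3 lay among the oocyte arrays. Without morula 3 its change was 3.72 (limma adjusted p 0.00625). TARS1, the threonyl enzyme, had a change of 1.00, CARS1, the cysteinyl enzyme, 0.98, GARS1, the glycyl enzyme of both compartments, 0.87, and WARS1 0.61. WARS1 spread widely, with 2093, 1490.0 and 274 in morulae and 192, 655 and 1840.5 in oocytes. Its estimate was 2.25 (limma adjusted p 0.0241) without the arrays numbered 3. Other probe sets of WARS1 gave 1.21, 0.85 and -0.49, and a second probe set of CARS1 gave 0.09. On all arrays none of these passed the test. GARS1 had 3444, 4141 and 3016 in morulae and 2483, 2289.7 and 1234 in oocytes, without overlap.

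Of the 31 genes 9 belong to the multi-synthetase complex, AIMP1 and AIMP2 included. Of these 9 genes 5 rose (55.6%, against 17.8% of all named genes), with a median change of 2.10. EEF1E1, another scaffold of the complex, was not among the 37 genes and did not pass the test (2.56, limma adjusted p 0.114). QARS1, the glutaminyl enzyme, had the largest change, with 497, 492 and 436 in morulae and 5.1, 20.4 and 74.6 in oocytes. The morula arrays were close to each other and all above the oocyte arrays, and the change was 3.57 (SE 0.59, limma adjusted p 0.00226). EPRS1 had 5842, 4209.6 and 3077 in morulae and 412, 631 and 2138 in oocytes. Its oocyte array 3 came nearest to the morulae, and the change was 2.33 (SE 0.54, limma adjusted p 0.0132). EPRS1 lost its call without oocyte 2 (adjusted p 0.051) or without morula 1 (0.0535), and in a fit of the compared stages alone (0.0596). RARS1, which loads arginine, had 7925, 7524 and 6093 in morulae and 1156, 696 and 3974 in oocytes. The groups did not overlap, and the change was 2.26 (SE 0.53, limma adjusted p 0.0138), or 0.0512 without oocyte 1 and 0.0607 with the compared stages alone. A second RARS1 probe set rose too, by 4.09 (limma adjusted p 0.00452).

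MARS1, the methionyl enzyme, had 679, 1015 and 962 in morulae and 95.9, 212 and 330.0 in oocytes. The change was 2.10 (SE 0.60, limma adjusted p 0.0342), but a second probe set of MARS1 went the other way, by -0.95 (limma adjusted p 0.0519). The call was lost without oocyte 1 (adjusted p 0.119), oocyte 2 (0.0781), morula 1 (0.063), morula 2 (0.105) or morula 3 (0.0743), and under quantile normalization (0.0913), median centring (0.0643) or the mean of both probe sets (0.384). The scaffold AIMP2 had 1380.1, 1506 and 750.4 in morulae and 446, 356 and 288 in oocytes. All morula arrays were above all oocyte arrays, with a change of 1.65 (SE 0.44, limma adjusted p 0.0266). Its call was lost without oocyte 2 (adjusted p 0.0729), oocyte 3 (0.0572), morula 1 (0.0914) or morula 2 (0.102), and under quantile normalization (0.063) or with the compared stages alone (0.0535). AIMP1, the other scaffold, changed by 1.36 (limma adjusted p 0.156), with 83.4, 145 and 16.4 in morulae and 16.3, 14.3 and 15.2 in oocytes.

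The other 3 enzymes of the complex did not pass the test on the full set. KARS1, which loads lysine, changed by 2.51 (limma adjusted p 0.0711, or 0.023 with the replicate block), with 1633, 1268 and 334 in morulae and 119, 388 and 58 in oocytes. LARS1, which loads leucine, changed by 1.71 (limma adjusted p 0.0528, or 0.0174 with the replicate block), with 2017, 2227 and 806 in morulae and 452, 544 and 395 in oocytes. LARS1 also passed without the lowest part of the probe sets (0.0433), without an intensity trend (0.0423), without the arrays numbered 3 (0.0254) and in the fit on means of all probe sets (0.0467). LARS1 arrays did not overlap between the stages, and KARS1 arrays did. IARS1 had 3126, 3167 and 2584 in morulae and 3074, 2008 and 2607 in oocytes, a change of 0.22 (SE 0.41, limma adjusted p 0.769) and the smallest of the 31. Catalytic class divides synthetases by the fold of their active site. By class, 4 of 8 cytoplasmic class I genes and 3 of 7 class II genes rose, against 17.8% of all named genes. The median changes of the classes were 1.91 and 2.58. EPRS1, which holds an active site of each class, was counted in neither.

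**Figure D2:**
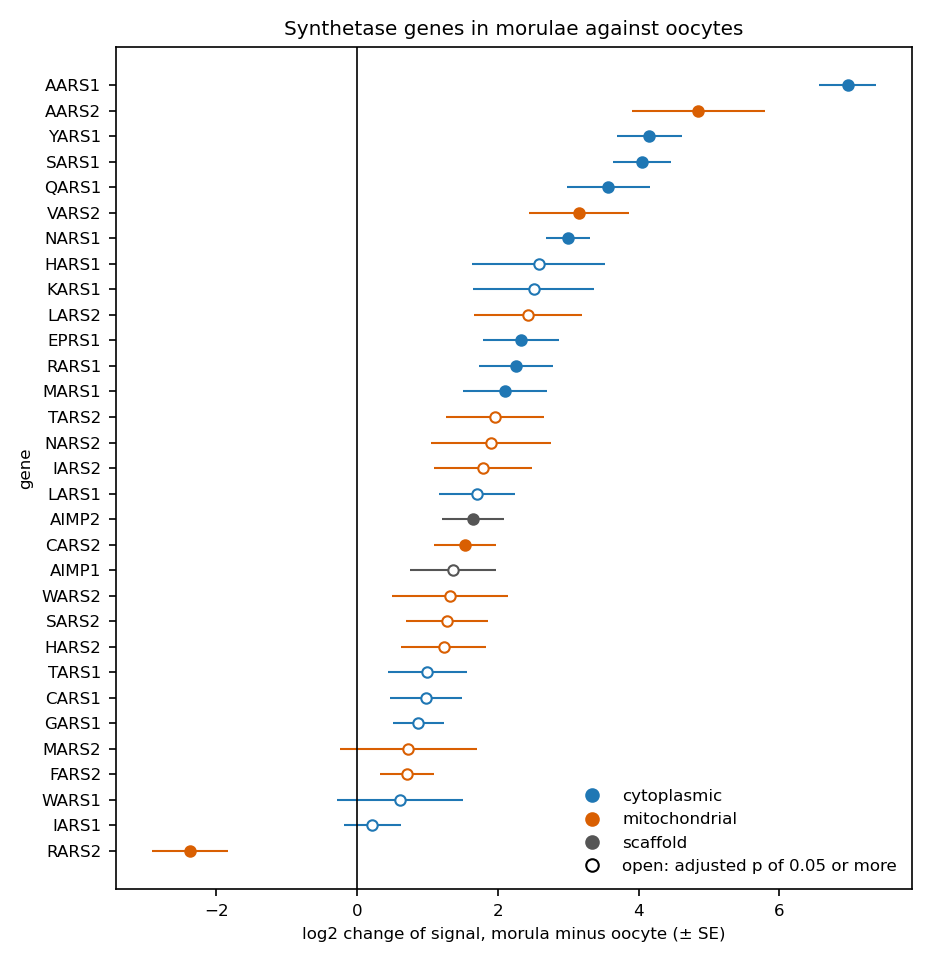
Change of log2(signal + 16) in morulae against oocytes (horizontal axis) for each of 31 genes (vertical axis), with the standard error of the fit as bars. Filled points passed the test and open points did not. AARS1 stands alone at 6.97 and RARS2 is the only gene left of 0, at -2.37.

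Of 13 mitochondrial synthetase genes 3 rose (23.1%) and 1 fell (7.69%) in morulae against oocytes, near the 17.8% and 8.67% of all named genes, with a median change of 1.53 (range -2.37 to 4.85) and 12 positive estimates. Without the arrays numbered 3, 10 of the 13 were called, RARS2 as lower, and 11 of the 16 cytoplasmic genes. In that fit 18.1% of all probe sets rose and 11.5% fell. AARS2, the mitochondrial alanyl enzyme, had 266, 330.4 and 4521 in morulae and 34.3, 3.38 and 2.82 in oocytes. All morula arrays were above the oocytes, but array 3 far exceeded the others, and the change of 4.85 (SE 0.94, limma adjusted p 0.00534) became 3.57 (limma adjusted p 0.00196) without morula 3. A second probe set of AARS2 gave 0.55. VARS2, which loads valine, had 187, 328 and 819.7 in morulae and 16.6, 20.7 and 54 in oocytes. The groups did not overlap and array 3 was again the highest in morulae, with a change of 3.15 (SE 0.71, limma adjusted p 0.0116).

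CARS2, the mitochondrial cysteinyl enzyme, had 585, 695 and 824 in morulae and 142, 217 and 390.4 in oocytes. The stages did not overlap, and the change was 1.53 (SE 0.44, limma adjusted p 0.0359). The call was lost without oocyte 1 (adjusted p 0.121), oocyte 2 (0.0977), morula 1 (0.0685), morula 2 (0.0962) or morula 3 (0.0795), and under quantile normalization (0.123), median centring (0.105) or the mean of both probe sets (0.117), and with the compared stages alone (0.0871). The second probe set of CARS2 gave 0.09.

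RARS2, the mitochondrial arginyl enzyme, was the only synthetase gene that fell. Its signal was 668, 685 and 248 in morulae and 1620.2, 4299.9 and 2485 in oocytes. Every morula array lay below every oocyte array, with a change of -2.37 (SE 0.54, limma adjusted p 0.0123). It was -1.94 (limma adjusted p 0.041) without the arrays numbered 3, and the call was lost without oocyte 2, at -2.01 (limma adjusted p 0.0518). RARS1, its cytoplasmic counterpart, rose in the same comparison.

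For 9 mitochondrial genes the test was not passed. LARS2, the leucyl enzyme, changed by 2.43 (limma adjusted p 0.054), with 268, 362 and 23.7 in morulae and 14.3, 9.17 and 19.7 in oocytes, so that morula array 3 was close to the oocytes. Without morula 3 its change was 3.45 (limma adjusted p 0.00178). TARS2, the threonyl enzyme, had the same pattern, with 444, 279.8 and 35 in morulae and 37.9, 29.3 and 31.9 in oocytes. Its change was 1.96 (limma adjusted p 0.0816), or 2.91 (limma adjusted p 0.00147) without morula 3. A second probe set of TARS2 gave 0.00 (limma adjusted p 0.997), and with the mean of both the change was 0.98 (limma adjusted p 0.0469). NARS2, the asparaginyl enzyme, changed by 1.90 (limma adjusted p 0.159, or 0.0187 with the replicate block). IARS2 (isoleucine) changed by 1.79, WARS2 (tryptophan) by 1.32, SARS2 (serine) by 1.28, HARS2 (histidine) by 1.23, MARS2 (methionine) by 0.73 and FARS2 (phenylalanine) by 0.71. MARS2 rested on morula array 3, with 276, 291 and 1729.7 in morulae and 601, 221 and 218 in oocytes, and was -0.12 without that array.

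The classes were compared on each array, without a test. The median change over 16 cytoplasmic genes minus that over 13 mitochondrial ones was taken relative to each gene's oocyte mean, with each oocyte array set against the other oocyte arrays. Morula arrays had 0.44, 0.70 and 0.64, against -0.21, 0.28 and -0.36 for oocyte arrays. The stages did not overlap, with 0.60 ± 0.14 in morulae and -0.10 ± 0.34 in oocytes (SD, n = 3 each). The morula value was 0.09 without oocyte 1, 0.37 without oocyte 2, 1.09 without oocyte 3 and 1.15 without the arrays numbered 3, so its size rested on which oocyte arrays were used. In blastocysts it was 1.04 ± 0.28 (SD, n = 3). A second measure subtracts the class medians of the signals themselves, and so sets levels of different probe sets against each other. It averaged 0.39 ± 0.84 in morulae and 0 ± 1.05 in oocytes (SD, n = 3 each), relative to the oocyte mean, a shift within the pooled spread of 0.95. It was 1.34 without the arrays numbered 3, 1.35 with the mean of all probe sets of a gene, and -0.18 without oocyte 1. In blastocysts this second measure was 0.99, 2.19 and 1.33, above every oocyte array, of which the highest was at 0.94. Relative to the oocyte mean, the cytoplasmic genes had medians of 2.60, 2.33 and 1.51 on the morula arrays and the mitochondrial genes 2.16, 1.63 and 0.86. On the same arrays the median over all named genes was 0.16, 0.19 and 0.10. On the blastocyst arrays the cytoplasmic medians were 2.13, 2.61 and 2.58 and the mitochondrial ones 1.40, 1.35 and 1.45. These medians describe the genes and carry no test.

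**Figure D3:**
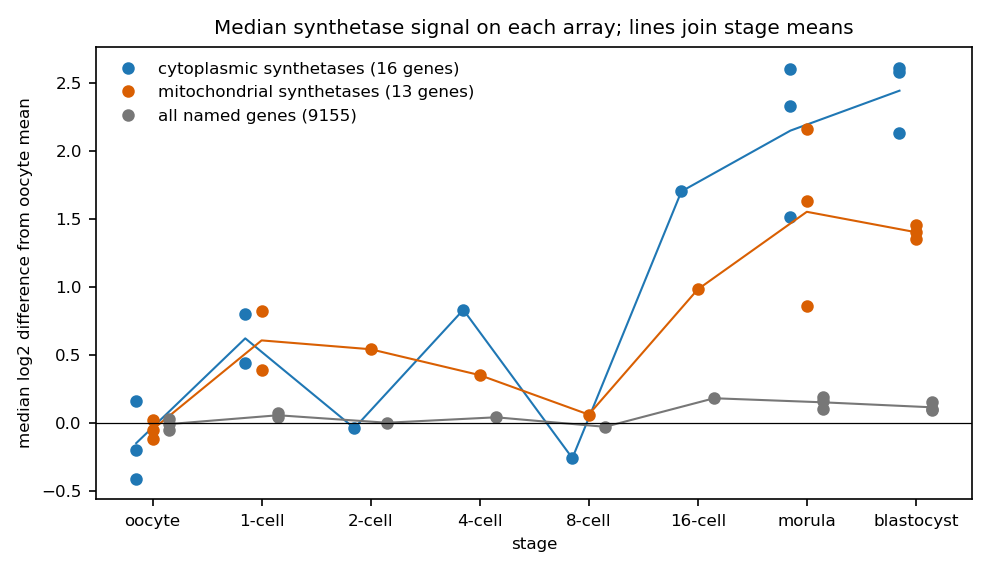
Median difference of log2(signal + 16) from the oocyte mean (vertical axis) on each array by stage (horizontal axis), for 16 cytoplasmic synthetases, 13 mitochondrial ones and 9155 named genes, with lines joining stage means. Each oocyte array is set against the mean of the other oocyte arrays. All named genes stay between -0.05 and 0.19. Both synthetase classes are highest from the 16-cell stage on. They are also above that range on the 1-cell arrays (cytoplasmic 0.80 and 0.44, mitochondrial 0.39 and 0.82) and the 4-cell array (0.83 and 0.35).

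For 11 amino acids both enzymes were measured, and the cytoplasmic gene had the larger change in 6 pairs, with a median difference of 1.10. Arginine showed the widest gap, with RARS1 at 2.26 and RARS2 at -2.37. The difference of 4.63 (SE 1.02) had no overlap between morula and oocyte arrays and was 5.02 without the arrays numbered 3. For serine the difference between SARS1 and SARS2 was 2.77 (SE 0.56), also without overlap. For isoleucine it was -1.56 (SE 0.94), with IARS2 ahead of IARS1 and no overlap. These 3 pairs reached 0.1, the smallest two-sided p that an exact permutation test of 3 against 3 arrays can give, or 0.367 after adjustment over the 11 pairs, so none can pass 0.05 by this test. For alanine the difference was 2.12 (exact permutation p 0.3), or 3.41 without the arrays numbered 3. The remaining pairs were between -0.96 for threonine and 1.37 for methionine, all with overlap. The tryptophan pair differed by -0.72 on all arrays and by 1.91 without the arrays numbered 3.

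**Figure D4:**
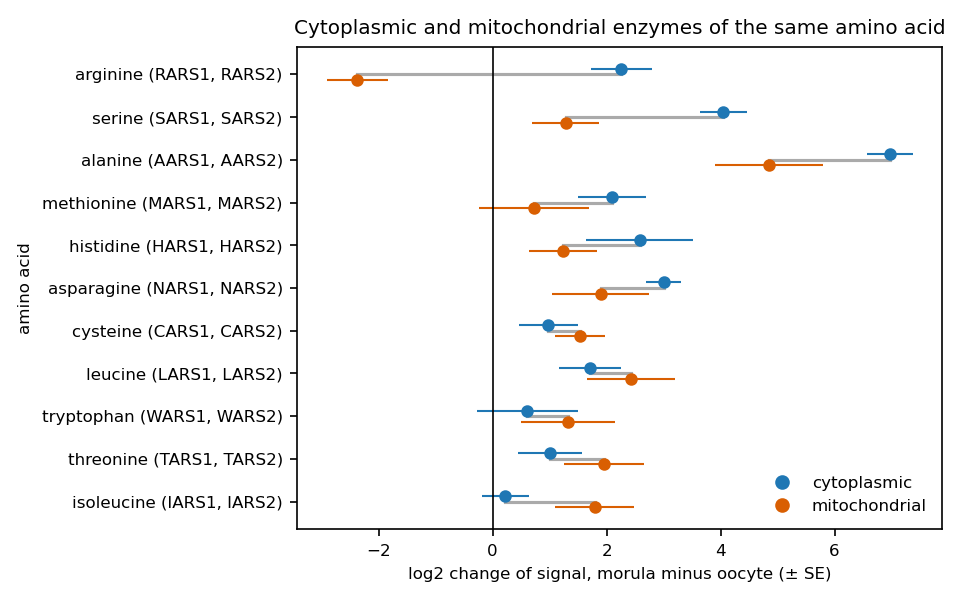
Change of log2(signal + 16) in morulae against oocytes (horizontal axis) for the cytoplasmic (blue) and mitochondrial (orange) enzyme of 11 amino acids (vertical axis), with standard errors as bars and a grey line joining each pair. The arginine pair, at 2.26 and -2.37, is the only one with points on opposite sides of 0.

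Along the stages the genes called in morulae followed different courses. Each gene's level was placed between its oocyte mean (0) and its morula mean (1) on the log2 scale, and stages with 1 array have no replicate check. NARS1, RARS1 and EPRS1 were already high before the 16-cell stage. NARS1 had 4526 and 4422 on the 1-cell arrays, 7408 on the 2-cell, 6344 on the 4-cell, 2344 on the 8-cell and 7120.0 on the 16-cell array. All 5 arrays from the 1-cell to the 8-cell stage exceeded every oocyte array, and the 8-cell array was the lowest of them, at 0.48 of the way. RARS1 had 6035 and 5144 on the 1-cell arrays, then 8199, 8186, 5973 and 5976 up to the 16-cell stage. It stayed between 0.84 and 1.09 of the way on all of these stages. EPRS1 had 4160.4 and 2979 on the 1-cell arrays, then 5832, 5124, 2055 and 3221. Its 8-cell array, at 0.56, lay below oocyte array 3, and 4 of the 5 arrays up to that stage were above every oocyte array.

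A larger group was high only at the 16-cell array among the cleavage stages, or nearly so. AARS1 had 242 and 104 on the 1-cell arrays, 16 on the 2-cell, 68.2 on the 4-cell, 24 on the 8-cell and 3734 on the 16-cell array. It stood at 0.89 of the way at the 16-cell stage, against -0.05 at the 8-cell stage. VARS2 had 38.1 and 161, then 84.7, 39.3, 50.1 and 817, and YARS1 had 136 and 238, then 959.7, 102, 73.6 and 2084. Both were beyond their morula mean at the 16-cell stage, at 1.35 and 1.15, and YARS1 was also high on the 2-cell array, at 0.88. CARS2 reached 1.15, MARS1 0.91 and AIMP2 0.78 at the 16-cell stage, and none of these 3 was over 0.44 on an earlier stage. On that 16-cell array the summed oocyte markers were at 8733, between the values of the 8-cell array (33079) and the morulae, and the cumulus or granulosa markers had their highest sum, 12611, or 7901 without HAS2. Of these markers VIM was at 1959 on the 16-cell array (at most 86.9 on any other), COL1A2 at 2432 (at most 260.3), LUM at 1397 (at most 256) and FST at 945 (at most 124). Others went the other way and lay below every oocyte array. STAR was at 537 (2537 to 2958 on oocyte arrays), VCAN at 177 (713 to 1396), PTX3 at 12.2 (20.6 to 428) and TNFAIP6 at 12.9 (70.2 to 1072). The part of these markers in the 16-cell signals of the synthetase genes was not tested.

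QARS1 and SARS1 were high only from the morula on. QARS1 had 23.9 and 12.6 on the 1-cell arrays, then 10.2, 8.71, 6.04 and 79.7, and SARS1 had 42.8 and 41.8, then 67.5, 53.2, 60.4 and 117. At the 16-cell stage they were at 0.34 and 0.37 of the way. AARS2 was irregular, with 34.6 and 20.1 on the 1-cell arrays, 1773 on the 2-cell, 204 on the 4-cell, 16.7 on the 8-cell and 17.4 on the 16-cell array. RARS2 stayed within the oocyte range or near it up to the 4-cell stage, with 2036 and 2202 on the 1-cell arrays, then 3290.1 and 1454. It was at 203 on the 8-cell and 162 on the 16-cell array, below every morula array. GARS1 and IARS1, which did not pass the test in morulae, both had their lowest signal on the 16-cell array, at 578 and 621.

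**Figure D5:**
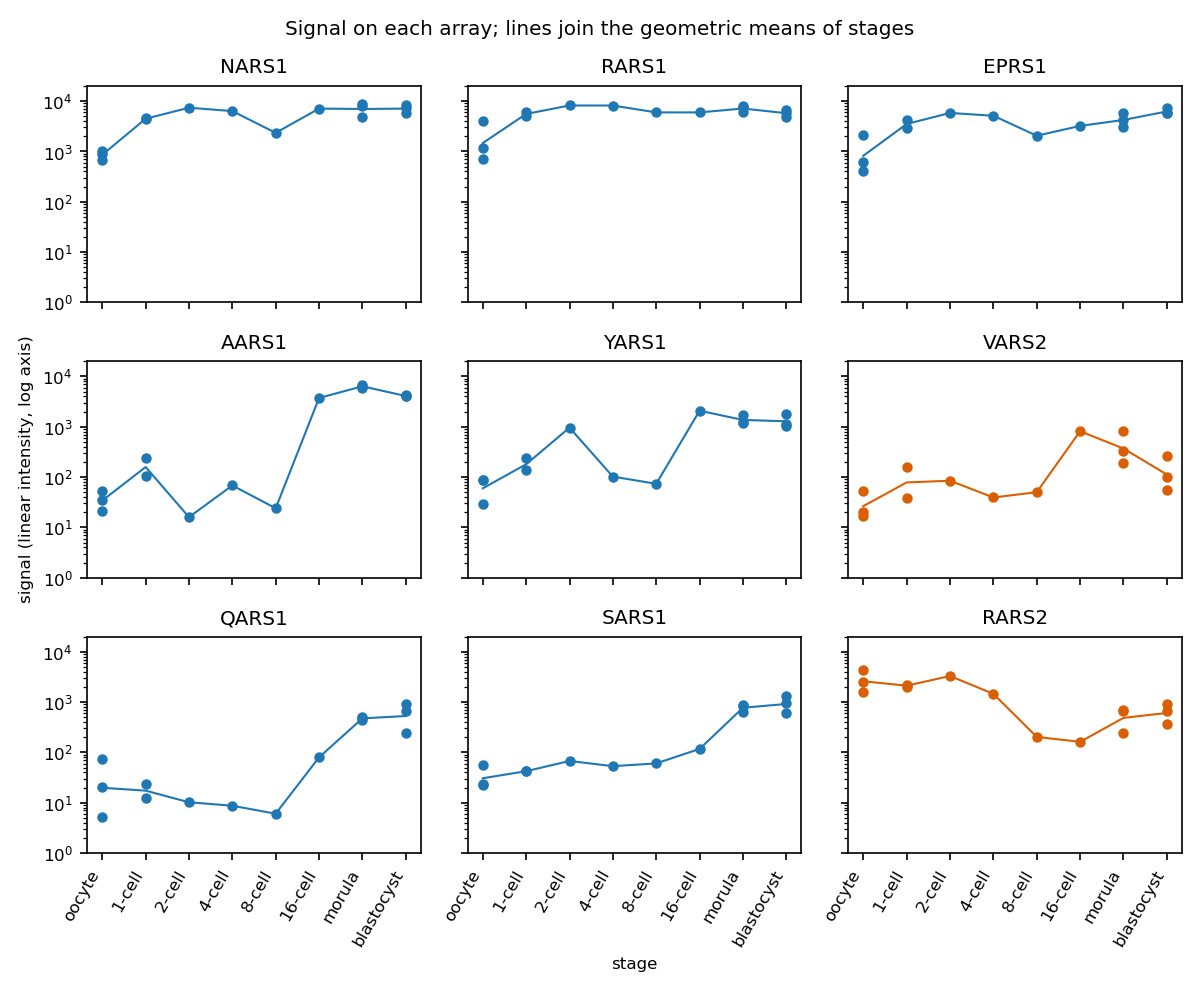
Signal (linear intensity, log axis) of 9 synthetase genes on each array by stage, with lines joining the geometric means of stages; blue panels are cytoplasmic and orange panels mitochondrial enzymes. NARS1, RARS1 and EPRS1 are high from the 1-cell stage, AARS1, YARS1 and VARS2 at the 16-cell array, QARS1 and SARS1 from the morula, and RARS2 drops at the 8-cell array to 203.

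In 1-cell embryos, before cleavage, against oocytes 1 of 31 genes passed. Since the labels do not say when the oocytes were taken, this comparison may span maturation as well as fertilization. Over all probe sets 0.233% rose and 0.0375% fell. NARS1 rose, with 4526 and 4422 on the 1-cell arrays and 1029, 907 and 679.7 on the oocyte arrays. The stages lay far apart, with a change of 2.36 (SE 0.35, limma adjusted p 0.0368). The call was lost without oocyte 1 (adjusted p 0.0782), oocyte 2 (0.0755), 1-cell 1 (0.0802) or 1-cell 2 (0.182), and in a fit of the compared stages alone (0.482), in which 0 of all probe sets passed. With the mean of its 3 probe sets the NARS1 change was 0.96 (limma adjusted p 0.64).

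The other synthetase genes had smaller or less even differences at the 1-cell stage. At an unadjusted p under 0.05 there were 8 genes, all higher, namely AARS1, EPRS1, FARS2, HARS1, NARS1, RARS1, TARS2 and YARS1, against 9.02% of all named genes in either direction. EPRS1 changed by 2.07 (limma adjusted p 0.284) and RARS1 by 1.90 (limma adjusted p 0.322), and both passed without oocyte 3, at 2.75 (limma adjusted p 0.03) and 2.61 (limma adjusted p 0.0236). HARS1 had 411 and 2024 on the 1-cell arrays and 139.9, 164 and 91.6 on the oocyte arrays, with a change of 2.69 (limma adjusted p 0.53). AARS1 changed by 1.79 (limma adjusted p 0.188). The median over the 31 genes was 0.70, against 0.05 for all named genes. The morula and 1-cell comparisons share the oocyte arrays. The change of NARS1 was 3.00 in morulae and 2.36 in 1-cell embryos, that of RARS1 2.26 and 1.90, and that of EPRS1 2.33 and 2.07.

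Between blastocysts and morulae, a step in which the embryo forms its cavity, 0 of 31 genes passed limma's test, and 1 had an unadjusted p under 0.05, against 9.31% of all named genes. Over all probe sets 0.121% rose and 0.0458% fell. The changes ran from -2.62 to 1.38, with a median of 0.03. AARS2 had the largest, with 119, 63.5 and 162 in blastocysts and 266, 330.4 and 4521 in morulae, a change of -2.62 (unadjusted p 0.0195, limma adjusted p 0.49). The stages did not overlap, and without the arrays numbered 3 the change was -1.59 (limma adjusted p 0.285). MARS2 changed by -2.00, or by -0.16 without the arrays numbered 3, and VARS2 by -1.56, or by -1.55 without them. Among positive values HARS1 changed by 1.38, IARS2 by 1.36, AIMP1 by 1.27 and WARS1 by 1.11. AARS1 stayed high, with 4011, 4011 and 4244 in blastocysts and 5805, 6742 and 6599.5 in morulae, a change of -0.64 (limma adjusted p 0.797). RARS2 stayed low, with 371, 922 and 657 in blastocysts and 668, 685 and 248 in morulae, a change of 0.32 (limma adjusted p 0.986).

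Genes that act beside the synthetases were read in 4 lists for morulae against oocytes, set against the 17.8% of all named genes that rose and the 8.67% that fell. Of 13 genes of accessory factors of tRNA charging 7 were measured, 3 rose and 0 fell, with a median of 2.56. GATB, a subunit of the amidotransferase that completes mitochondrial glutaminyl-tRNA, had 4281, 3476 and 1463 in morulae and 508, 131 and 4.79 in oocytes, a change of 4.59 (SE 1.05, limma adjusted p 0.0124). PTRH2, a peptidyl-tRNA hydrolase, changed by 4.17 (limma adjusted p 0.000213), and DTD1, which removes wrongly handed amino acids from tRNA, by 3.25 (limma adjusted p 0.0402). EEF1E1, the third scaffold of the multi-synthetase complex, changed by 2.56 (limma adjusted p 0.114).

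Of 10 genes of translation elongation, all measured, 7 rose and 0 fell, with a median of 2.17. These factors carry charged tRNA to the ribosome and move it along. EEF2, the cytoplasmic translocation factor, changed by 3.53 (limma adjusted p 0.0019) and EEF1D, an exchange factor, by 3.44 (limma adjusted p 0.00347). TUFM, which brings charged tRNA to mitochondrial ribosomes, changed by 3.29 (limma adjusted p 0.0172). GFM1, the mitochondrial translocation factor, changed by 3.14 (limma adjusted p 0.0441), or with an adjusted p of 0.0667 under quantile normalization, and its second probe set gave 1.57, which did not pass.

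Of 32 genes of tRNA processing and modification 23 were measured, 5 rose and 0 fell, and the median was 0.22. POP5, a subunit of ribonuclease P, which trims the 5' end of precursor tRNA, had 5724, 5792 and 1493 in morulae and 83.9, 56.6 and 33.3 in oocytes, a change of 5.70 (SE 0.56, limma adjusted p 0.000135). TSEN54, a subunit of the tRNA splicing endonuclease, had 523, 542 and 752 in morulae and 2.31, 2.59 and 2.59 in oocytes, a change of 5.05 (SE 0.29, limma adjusted p 1.3e-05). Morula and oocyte arrays were far apart for both. PUS7, a pseudouridine synthase, changed by 3.90 (limma adjusted p 0.000285). RPP38, another ribonuclease P subunit, changed by 2.35 (limma adjusted p 0.0293), while its other probe set, at 0.55, did not pass.

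Of 30 genes of amino acid supply and of the response to amino acid shortage 26 were measured, 4 rose and 4 fell, and the median was -0.31. The amino acid transporters SLC7A5 and SLC38A2 changed by 4.74 (limma adjusted p 0.000223) and 4.27 (limma adjusted p 0.00438). The other SLC38A2 probe set, at 1.64, did not pass. SLC7A5, which carries leucine and other large neutral amino acids, had 9677, 8105 and 7023 in morulae and 709, 215 and 155 in oocytes. ATF3, a transcription factor induced by stress, changed by 3.71 (limma adjusted p 0.00299). SHMT2 rose as well, by 1.94 (limma adjusted p 0.0251, or 0.0494 under quantile normalization). PSPH, the last enzyme of serine synthesis, changed by -3.71 (limma adjusted p 0.0226), with 601, 379 and 19.3 in morulae and 2613, 3321 and 2169 in oocytes. Its other probe set, at -0.62, did not pass. EIF2AK1, DDIT3 and CHAC1 fell too. They changed by -2.23 (limma adjusted p 0.0188), -2.20 (limma adjusted p 0.0476) and -1.91 (limma adjusted p 0.0333). A second EIF2AK1 probe set gave -2.26 (limma adjusted p 0.0165), and a second CHAC1 probe set, at -0.38, did not pass. ATF4, the transcription factor for which this response is best known, changed by 1.57 (limma adjusted p 0.187). In 1-cell embryos against oocytes and in blastocysts against morulae, 0 genes of these 4 lists passed limma's test.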

How the data were processed

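The deposited table holds linear intensity values of 24128 probe sets on 15 arrays. How the authors summarised and scaled it is not given in the sources used here. Per the labels' protocols, total RNA was amplified in 3 rounds and labelled with biotin. Values were used without further normalization. Array medians were not equal, at 39.7 to 61.7 over all probe sets. Over the tested probe sets they were 61.0, 60.9 and 48.2 on morula arrays and 54.2, 50.5 and 39.7 on oocyte arrays. Quantile normalization and median centring were therefore run as alternatives. Titles gave the groups and replicate numbers. Names came from the platform annotation, with symbols updated by gene ID from RefSeq's assembly ARS-UCD2.0, and 13292 of the 24016 tested probe sets had 1 symbol. Coordinates and sequences are not used here.

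The 112 control probe sets were left out. limma (version 3.58.1, R 4.3.3) fitted a mean per stage to log2(value + 16) on all 15 arrays, with a variance trend on intensity and Benjamini-Hochberg adjustment at 0.05 over every tested probe set. The 4 replicated stages leave 7 residual degrees of freedom, and p-values measure only the spread between these arrays, whose number limits the precision. Class medians and counts carry no test, and pairs were tested by exact permutation with scipy 1.17.1. The procedure was tested on simulated data. Python 3.11.15 and matplotlib 3.10.9 drew the figures.

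The genes and lists were chosen with earlier results of these data known. Every measured synthetase gene could be named, with full values for the 8 largest rises and falls past the test, and of each related list up to 4 genes with the largest change past the test. Full values of other genes were added after their values were seen. So were ATF4, EEF1E1, ODF2, VIM, COL1A2, LUM, FST, HAS2, STAR, VCAN, PTX3, TNFAIP6, EIF2AK1, DDIT3, CHAC1 and SHMT2.

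Deviations of same-numbered arrays from their stage means correlated at 0.142, 0.107 and 0.182 for morulae with oocytes. They correlated at 0.195, 0.106 and 0.306 for blastocysts with morulae, and at 0.183 and -0.115 for 1-cell embryos with oocytes. Arrays of different numbers were not compared in this way, so these values cannot show a pairing, and the labels state none. The main fit has no block, and the replicate number entered as a block only as an alternative. Alternatives were quantile normalization, median centring, pseudocounts of 1 and 64, a filter on dim probe sets, no intensity trend, the compared stages alone, a replicate block, a block on labelling controls, no arrays numbered 3, the mean of all probe sets of a gene and leaving out each replicate. Per-gene class changes and marker sums without HAS2 were added after seeing the data.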

Additional observations from a re-analysis of the deposited data

How the results depend on the processing

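In morulae against oocytes the count of 13 called genes (12 rose, 1 fell) was 10 under quantile normalization, 11 under median centring, 9 with the compared stages alone, 16 with the replicate block and 23 without the arrays numbered 3. It ran from 9 to 19 when single replicates were left out, with 19 without morula 3. AARS1, AARS2, YARS1, SARS1, QARS1 and VARS2 were called in all of these fits. Over all probe sets 2830 rose and 1720 fell, against 2431 and 2302 under quantile normalization and 2511 and 2269 under median centring. The median of all probe sets was 0.04, and -0.06 and -0.14 under these scalings. Estimates that changed sign were IARS1 at -0.01 (quantile normalization), MARS2 at -0.35 (no arrays numbered 3) and WARS1, with MARS2 from -0.12 (without morula 3) to 1.19 (without oocyte 1) and WARS1 from -0.20 (without oocyte 1) to 1.48 (without morula 3) when single replicates were left out. In 1-cell embryos against oocytes the count of 1 was 0 with the compared stages alone, with the mean of all probe sets and with the replicate block (NARS1 2.25, limma adjusted p 0.0727). Samples of different stages share only a replicate number in the labels. It ran from 0 to 3 when single replicates were left out, 3 without oocyte 3 and 0 without oocyte 1, oocyte 2, 1-cell 1 or 1-cell 2. In blastocysts against morulae it was 0 in all fits run. The cytoplasmic minus mitochondrial shift of class medians, 0.39, was 0.60 as medians of per-gene changes, a measure chosen after seeing the data. The shift of class medians was 1.35 with the mean of all probe sets and 1.34 without the arrays numbered 3, and ran from -0.18 (without oocyte 1) to 0.87 without single replicates. The causes of these changes were not tested. The block changed no other call than those given. Related lists had 23 calls, 24 under quantile normalization and 25 under median centring.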
